A study of Mus musculus with 16 samples.

Results

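The cells described here are the rare CD4+ IL-4eGFP+ T cells that carried RNA of Tbx21, the gene for the transcription factor T-bet, in mice infected with the nematode Nippostrongylus brasiliensis (Nb). A cell was taken when it came from a lung or mesenteric lymph node (MLN) library, held more than 500 unique molecular identifiers (UMIs, 1 per captured RNA molecule), more than 500 genes and less than 7% mitochondrial UMIs, carried a productive T cell receptor (TCR) α and β chain, and had at least 1 Tbx21 UMI. Cells with the invariant α chain that joins TRAV11 to TRAJ18, the receptor of invariant natural killer T (iNKT) cells, were left out. The members were thus chosen by measured Tbx21 UMIs and TCR sequence. These rules left 75 Tbx21-positive cells out of 4714 cells with a TCR and 6319 barcodes in all. The Tbx21-negative cells of the same libraries, 4563 in number, served as the comparison.

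The study asked how Th2 cells differ between organs and clones, by droplet sequencing of transcripts and TCRs from single cells. All mice were 4get reporter mice on a C57BL/6 background, in which cells that transcribe Il4 fluoresce green, and all were infected with 500 larvae and taken at day 10, so there was no uninfected group. The first run held lung and MLN of 2 mice aged 13 weeks, 1 library per organ and mouse (lung 1, lung 2, MLN 1 and MLN 2), each sorted for CD4+ IL-4eGFP+ cells. A second run held mediastinal lymph node (medLN) and MLN cells of 2 other mice aged 10 weeks, told apart by hashtag antibodies within 1 pool. The sort gate is read from the reporter, so it limits the cells to those that had switched on Il4 at some time, not to those that make IL-4 protein. With 2 mice, the p-values below rest on few sums and on a spread that the test pools over genes. They do not measure the spread among mice, and a gene whose UMIs sit mostly in 1 cell can pass.

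T-bet is the factor that sets up the type 1 (Th1) program of CD4+ T cells: it switches on Ifng, which encodes interferon-γ, and Cxcr3, a chemokine receptor that guides cells to sites of type 1 inflammation. GATA3 does the same for the type 2 (Th2) program, with the cytokine genes Il4, Il5 and Il13, and the 2 factors are known to oppose each other. Worm infection drives type 2 responses, and the cells here were sorted in such an infection. T-bet is also made by NK cells, CD8+ T cells and innate-like T cells, so each of these was checked.

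The label held for the markers that did not choose the cells. Ifng or Cxcr3 RNA was found in 18 of 33 positive cells of lung 1, 20 of 32 of lung 2, 4 of 8 of MLN 1 and 2 of 2 of MLN 2. That made 44 of 75 positive cells (58.7%, 95% exact interval 46.7 to 69.9) against 2.81% of negative cells. The cells were also T cells: Cd3e, a chain of the TCR complex, was found in 33 of 33, 31 of 32, 8 of 8 and 2 of 2 cells. Cd4 was found in 25 of 33, 22 of 32, 4 of 8 and 1 of 2, which is 75.8%, 68.8%, 50% and 50% against 78.6%, 74.5%, 76.8% and 78.3% of negative cells. No positive cell held a Cd8a UMI, and Cd8b1 gave 3 UMIs in lung 1, 1 in lung 2 and 0 in both MLN libraries. All intervals on shares are exact (Clopper-Pearson) and cover counting error only.

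Positive cells made up more of the lung than of the MLN libraries. They were 33 of 1079 cells without an invariant TCR in lung 1, 32 of 408 in lung 2, 8 of 2417 in MLN 1 and 2 of 734 in MLN 2. The shares were 3.06% (95% interval 2.11 to 4.27), 7.84% (5.43 to 10.9), 0.331% (0.143 to 0.651) and 0.272% (0.0330 to 0.981). The intervals of both lung libraries lay above those of both MLN libraries, and the 2 lungs did not overlap each other either. With cells taken with or without a TCR, the shares were 2.5%, 6.5%, 0.687% and 0.569%. Since Tbx21 chose the cells, these shares are a description and carry no test.

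**Figure D1:**
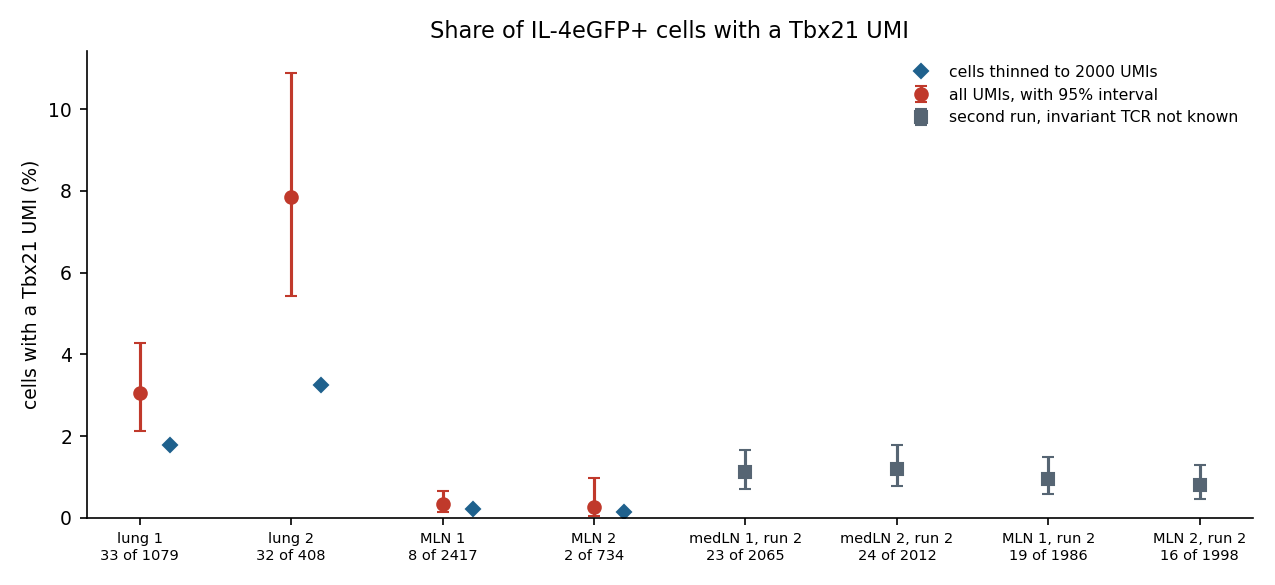
Share of cells with a Tbx21 UMI (y axis, percent) in each library, with the number of cells under each name. Red points are all UMIs with 95% exact intervals, blue diamonds are cells thinned to 2000 UMIs, and grey squares are the second run, where invariant TCRs are not known. The lung points at 3.06% and 7.84% lie above the MLN points at 0.331% and 0.272%.

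Most positive cells rested on a single molecule: 48 of 75 had 1 Tbx21 UMI, 19 had 2, 5 had 3, 2 had 4 and 1 cell of lung 1 had 11. The cells just outside the rule had 0. With every cell thinned to 2000 UMIs, the shares fell to 1.78%, 3.25%, 0.211% and 0.138%, in the same order except that the lungs moved closer together. Thus a cell counted as negative may still have made Tbx21 RNA that was not captured. Depths were close in the lung, where the median positive cell had 6214 and 5565 UMIs and the median negative cell 6929.5 and 5774. In the MLN the positive cells were deeper, with medians of 6696 and 7294 against 4979 and 4979.5. Free RNA was checked in 135 barcodes with no TCR, no Cd3 chain and at least 3 myeloid or B cell markers, whose median depth was 3576 UMIs: none held Tbx21, Ifng or Cxcr3, which allows a share of up to 2.22% over all 135. The limit was 3.53% over the 85 lung barcodes, 6% over the 50 of the MLN, and 5.17%, 11.1%, 10% and 15% in the single libraries.

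More than 1 productive β chain or more than 2 productive α chains, a sign of doublets, were found in 0 of 33, 1 of 32, 1 of 8 and 0 of 2 positive cells. That is 0%, 3.13%, 12.5% and 0% against 3.35%, 1.86%, 7.26% and 8.33% of negative cells, so neither kind of cell was higher throughout. No doublet caller was run. Of the 13 barcodes that 2 libraries shared, none belonged to a positive cell.

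The TCRs of the positive cells were diverse. Among them, 52 of 75 were the only cell of their clone, and 23 belonged to 21 clones of 2 or more cells, a clone being the cells of 1 mouse with the same CDR3 nucleotide sequences. Of these clones, 19 held 1 positive cell and 2 held 2. The receptors of 4 clones described below are printed so that their joints can be compared, as the CDR3 bases read from the deposited contigs, 5′ to 3′, with capitals for bases that match neither the end of the germline V segment nor the germline J segment:
Clone 1 TRAV7-5 TRAJ31: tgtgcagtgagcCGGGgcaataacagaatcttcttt
Clone 1 TRBV1 TRBJ2-2: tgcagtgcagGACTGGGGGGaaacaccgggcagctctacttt
Clone 2 TRAV9D-1 TRAJ27: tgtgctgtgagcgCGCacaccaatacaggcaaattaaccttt
Clone 2 TRBV13-2 TRBJ2-7: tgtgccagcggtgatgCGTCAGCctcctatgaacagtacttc
Clone 10 TRAV14-2 TRAJ31: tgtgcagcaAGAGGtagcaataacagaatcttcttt
Clone 10 TRBV13-3 TRBJ1-5: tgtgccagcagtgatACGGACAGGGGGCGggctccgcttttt
Clone 16 TRAV14-3 TRAJ53: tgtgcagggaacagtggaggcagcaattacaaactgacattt
Clone 16 TRBV3 TRBJ1-3: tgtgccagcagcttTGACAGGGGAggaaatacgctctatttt
Clones 1 and 10 both used TRAJ31 with different V segments, and the joint bases CGGG and AGAGG differed. The α chain of clone 16 had 0 joint bases, so its V and J ends met with no added base. Its β chain had 10, which may include bases of a germline D segment, a part that only β chains have.

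Across the 75 cells the 87 productive α contigs held 83 different CDR3 sequences and the 78 β contigs held 75. They drew on 47 TRAV and 16 TRBV segments. TRBV13-2 was used by 17 positive cells (22.7%, 95% interval 13.8 to 33.8) and 13.1% of negative cells, and TRBV5 by 16 (21.3%) against 9.77%. TRBV1 was used by 8 (10.7%) against 8.48%, and TRAV14-3 by 5 cells (6.67%), all in lung 2, against 2.28%. The pools are unlike, since 65 of the 75 positive cells came from the lung and 3141 of the 4563 negative cells from the MLN. These segment shares are counts over cells of 2 mice and were not tested.

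Tbx21-positive cells were then compared with Tbx21-negative cells of the same library, to ask which other RNAs went with Tbx21. UMIs were summed per library and kind of cell and fitted with edgeR's quasi-likelihood test with the library as a block. Of 9068 genes tested, 180 passed an adjusted p of 0.05, which is 1.99% (107 higher, 1.18%, and 73 lower, 0.805%). In the lung libraries alone the split turned to 94 higher and 155 lower, and without MLN 2 to 92 and 131. Without the library block 1 gene passed, Ccl5. The median log2 fold change of all genes was −0.10, and TCR genes and Tbx21 itself were not tested. Levels are given as counts per 1000000 UMIs of the summed cells (CPM), which can differ through the share of cells with the RNA or through the amount per cell.

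Type 1 genes led the list of higher genes. Of 20 tested genes of the type 1 program, 7 rose and 2 fell, and their median log2 fold change was 0.53. Without lung 1, 3 rose and none fell (median 1.05, 8 of 18 at an unadjusted p under 0.05 in edgeR), in cells thinned to 2000 UMIs 3 rose, in the MLN alone 2, and without the library block 1. The list was chosen with earlier results of these data known, and its genes include those used to label the cells.

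Cxcr3 (chrX:101731535-101734269, minus strand, GRCm38) stood at 65.6 CPM in the 33 positive cells of lung 1, at 156 in lung 2, at 189 in MLN 1 and at 617 in MLN 2. Negative cells had 3.17, 16.3, 5.29 and 10.5 CPM. Every positive sum lay above every negative one, and the log2 fold change was 4.22 (SE 0.34, adjusted p = 1.34e-31). By cells, Cxcr3 was found in 36.4%, 50%, 50% and 100% of positive cells, the last being 2 of 2 cells, against 1.63%, 5.85%, 1.74% and 4.10% of negative cells. In the fit without the library block, the log2 fold change of Cxcr3 was 4.17 with an adjusted p of 0.0636.

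Ifng (chr10:118441046-118445892, plus strand) was seen in the lung alone among positive cells. Its levels were 168, 60.6, 0 and 0 CPM in positive cells and 5.97, 13.9, 0.634 and 0 CPM in negative cells. Both lungs were higher in positive cells, and none of the 8 and 2 MLN cells held the RNA. The cause of the MLN zeros was not tested. The log2 fold change was 3.57 (SE 0.40, adjusted p = 4.65e-16). The lung cells with the RNA were 12 of 33 (36.4%, 95% interval 20.4 to 54.9) and 6 of 32 (18.8%, 7.21 to 36.4), against 1.34% and 1.86% of negative cells. A single cell held 22 of the 46 UMIs of lung 1, and without lung 1 the adjusted p of Ifng was 0.106.

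Ccl5 (chr11:83525778-83530518, minus strand), a chemokine made by effector and memory T cells, differed the most of the genes named by size. It stood at 128, 178, 247 and 1371 CPM in positive cells and at 9.37, 3.18, 4.09 and 4.35 CPM in negative cells. Positive cells were higher in each library with no overlap, by a log2 fold change of 5.33 (SE 0.30, adjusted p = 1.16e-65), and Ccl5 passed in all 18 alternative settings. Few cells carried it: 6 of 33, 7 of 32, 3 of 8 and 1 of 2. Single cells held 27 of the 35 UMIs of lung 1, 13 of 41 of lung 2, 11 of 17 of MLN 1 and all 20 of MLN 2. Of the 135 non-T barcodes above, 7 (5.19%) held Ccl5, all from the MLN. They were 6.67% of such barcodes in MLN 1 and 25% in MLN 2, against 37.5% and 50% of the 8 and 2 positive cells.

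Other type 1 genes that rose were lower in abundance or closer in level. Xcl1, a chemokine for cross-presenting dendritic cells, had 2, 4, 8 and 0 UMIs in positive cells and 0, 2, 5 and 4 in negative cells (log2 fold change 6.72, SE 0.76, adjusted p = 1.81e-15). It had too few UMIs to be tested in the lung alone, without MLN 1 or without the Zbtb16 cells described below, so its call rests on MLN 1. Ifngr1, the ligand-binding chain of the interferon-γ receptor, stood at 445, 558, 116 and 0 CPM against 287, 241, 38.8 and 40.7 (log2 fold change 0.85, SE 0.22, adjusted p = 0.00783). It was higher in 3 of 4 libraries and absent from the 2 cells of MLN 2. Bhlhe40, a transcriptional regulator of T cell cytokines, was higher in all 4, at 547, 628, 43.7 and 137 CPM against 400, 290, 18 and 18.5 (log2 fold change 0.74, SE 0.22, adjusted p = 0.0422). Ifngr1 and Bhlhe40 each lost the call without lung 1 (adjusted p = 0.199 and 0.227) and without lung 2 (0.795 and 0.907).

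Not every type 1 gene followed. The chemokine gene Ccl4 had a log2 fold change of −3.72 (adjusted p = 0.0188), with 1 UMI in all positive cells. With DESeq2 its log2 fold change was 0.77 (SE 3.32, no adjusted p given), and with positive cells of at least 2 Tbx21 UMIs it did not pass (−2.43, adjusted p = 0.481 in edgeR). Ccl3 had no UMI there against 206 in negative cells, at least 1.38-fold lower. In the negative cells these UMIs sat in few cells, since 295 Ccl4 UMIs of lung 1 came from 8 cells and the Ccl3 UMIs from 4. Id2 (log2 fold change 0.57, adjusted p = 0.129) did not pass.

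**Figure D2:**
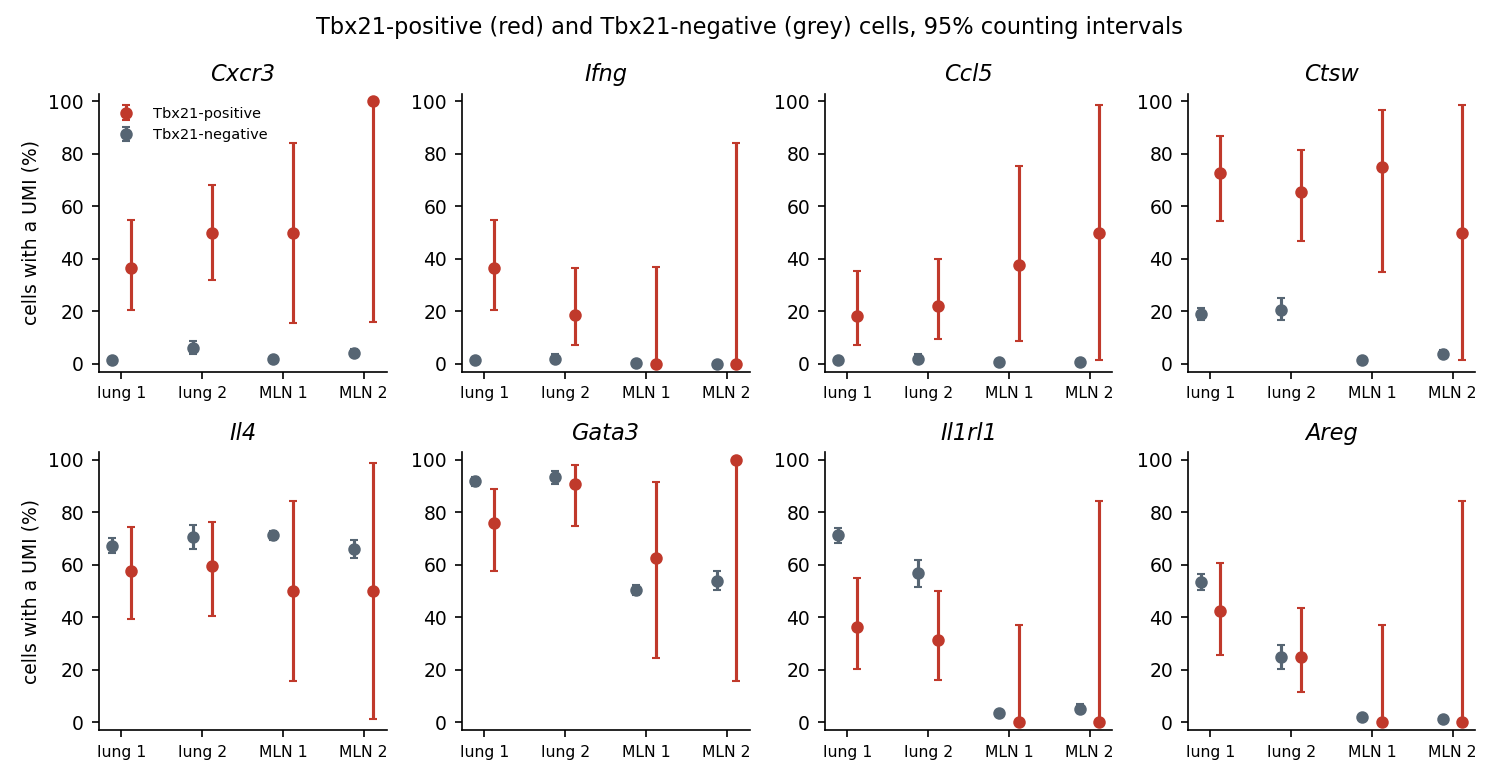
Share of cells with at least 1 UMI (y axis, percent) for 8 genes in the 4 libraries, for Tbx21-positive cells in red and Tbx21-negative cells in grey, with 95% exact intervals. Cxcr3, Ccl5 and Ctsw lie higher in the red points of each library, Ifng in both lungs, and Il1rl1 lies lower in both lungs, at 36.4% and 31.3% against 71.2% and 56.9%, while the intervals of Il4 overlap in each library.

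Of 11 tested genes of cytotoxic granules and NK receptors 3 rose (Ctsw, Nkg7 and Cd226) and none fell, and the median log2 fold change was 0.77. In the lung alone and without MLN 2 Srgn fell and without lung 2 Gzmb fell, without lung 1 2 of 10 rose, and without the library block none of 9 passed in edgeR, with 4 at an unadjusted p under 0.05. Ctsw, a cathepsin of NK and cytotoxic T cells, stood at 325, 242, 407 and 206 CPM in positive cells and 57.5, 77.1, 6.06 and 14.9 CPM in negative cells. The groups did not overlap, and the log2 fold change was 2.72 (SE 0.23, adjusted p = 3.98e-29). Ctsw was the most widely held of these RNAs, in 72.7%, 65.6%, 75% and 50% of positive cells against 18.9%, 20.5%, 1.54% and 3.55% of negative cells.

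Nkg7, a granule membrane protein of the same cells, stood at 226, 121, 291 and 0 CPM against 76.7, 23.0, 12.8 and 13.7. It was higher in 3 libraries and absent from both positive cells of MLN 2 (log2 fold change 2.23, SE 0.26, adjusted p = 3.30e-15). Cd226, an activating receptor, stood at 87.5, 64.9, 146 and 68.6 CPM against 20.5, 32.6, 12.8 and 20.8, higher in all 4 (log2 fold change 1.83, SE 0.31, adjusted p = 1.93e-06). Ctsw and Nkg7 passed with each library left out, and Cd226 did not without lung 1 (adjusted p = 0.0696).

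Of 10 NK cell markers, Ncr1, Klra8, Klra4, Klre1, Eomes, Tyrobp and Prf1 had no UMI in any positive cell, and Klrb1c, Txk and Gzma had some. The median log2 fold change of the 3 tested was 1.52. The summed NK marker level was 14.6 and 13 CPM in lung positive cells against 26.4 and 36.6 in negative cells, and 204 and 1028 CPM in MLN positive cells against 65.4 and 50.3. Most of the MLN 2 value came from 13 Gzma UMIs of 1 cell. Klrb1c, the NK1.1 antigen, passed (log2 fold change 2.78, adjusted p = 0.0231) on 7 UMIs in 3 cells of MLN 1.

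On the type 2 side, Il4 did not differ beyond the spread. It stood at 295, 493, 306 and 137 CPM in positive cells and 452, 379, 398 and 321 CPM in negative cells. Positive cells were lower in 3 libraries, and in lung 2, where they were higher, 1 cell held 68 of the 114 UMIs. The log2 fold change was −0.36 (SE 0.20, adjusted p = 0.566), and in cells without Mki67 or Top2a it was −0.92 (SE 0.24, adjusted p = 0.0186). Il4 was found in 19 of 33, 19 of 32, 4 of 8 and 1 of 2 positive cells, or 57.6%, 59.4%, 50% and 50% against 67.3%, 70.7%, 71.2% and 66.0%.

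Gata3 RNA was present in most positive cells, in 25 of 33, 29 of 32, 5 of 8 and 2 of 2. Its level was 387, 485, 160 and 411 CPM against 848, 812, 211 and 225 CPM in negative cells. It was lower in both lungs and MLN 1 and higher in the 2 cells of MLN 2, and the log2 fold change was −0.88 (SE 0.21, adjusted p = 0.00385). That call did not hold without lung 1 (adjusted p = 0.933) or without lung 2 (0.425). Il4 or Gata3 was detected in 87.9%, 93.8%, 62.5% and 100% of positive cells and in 96.4%, 96.5%, 83.0% and 82.4% of negative cells, lower in 3 of 4 libraries.

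Of 22 tested genes of the type 2 program 11 fell and none rose, and the median log2 fold change was −1.19 (−1.11 with genes at 0 set to their bounds). Without lung 1, 3 fell (median −0.57), without lung 2 6 fell, with DESeq2 3 fell (median −0.55), and in the MLN alone and without the library block none fell in edgeR, with 2 at an unadjusted p under 0.05 in each. The list was chosen with earlier results known. Il1rl1, the IL-33 receptor ST2, stood at 98.5, 69.3, 0 and 0 CPM in positive cells and 467, 280, 10.8 and 15.6 CPM in negative cells. It was lower in both lungs (log2 fold change −2.26, SE 0.29, adjusted p = 1.01e-11), and the lung cells with the RNA were 36.4% and 31.3% against 71.2% and 56.9%. Areg, the growth factor amphiregulin, stood at 346, 130, 0 and 0 CPM against 1486, 484, 10.9 and 2.97, again lower in both lungs (log2 fold change −2.12, SE 0.26, adjusted p = 6.48e-13). For both genes the MLN zeros show no direction, since the positive sums there were too small to show the negative level. Both passed with each library left out. The share of lung 2 cells with Areg was alike, at 25.0% and 24.7%, so there the difference lay in the UMIs per cell.

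The cytokines that act on eosinophils and epithelium were lower too. Il13 stood at 69.3, 64.9, 29.1 and 0 CPM against 330, 136, 8.81 and 51.9, lower in 3 of 4 libraries, with the 1 positive cell of MLN 1 above the negative sum (log2 fold change −1.76, SE 0.31, adjusted p = 3.07e-06). Il5 stood at 10.9, 13, 0 and 0 CPM against 92.0, 33.0, 0.493 and 0 (log2 fold change −2.52, SE 0.54, adjusted p = 0.000441), a difference seen in the lung. Neither passed without lung 1 (adjusted p = 0.789 and 0.977). Il6 had no UMI in positive cells against 376 in negative cells, at least 2.52-fold lower.

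Other genes of the type 2 list, and Hdc from outside it, were lower as well. Cysltr1, a receptor for cysteinyl leukotrienes, stood at 21.9, 13, 14.6 and 0 CPM against 133, 109, 26.3 and 27.0 (log2 fold change −2.77, SE 0.42, adjusted p = 1.77e-08). Hdc, which makes histamine, stood at 10.9, 8.66, 0 and 0 CPM against 91.4, 107, 7.68 and 0.686 (log2 fold change −3.42, SE 0.51, adjusted p = 1.505e-08). Both were lower in both lungs, and the positive sums of the MLN were too small to show a direction. Calca, the precursor of a neuropeptide (log2 fold change −1.50, adjusted p = 0.000113), Igfbp7 (−1.88, adjusted p = 0.000506), Pparg, a nuclear receptor of lung Th2 cells (−1.65, adjusted p = 0.0376), and Hpgds, which makes prostaglandin D2 (−3.39, 1 UMI, adjusted p = 0.0417), completed the 11. In cells without Mki67 or Top2a, 8 genes of the list fell, Il4 among them, and with negative cells of matched depth 6 fell and 1 rose.

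Ifngr2, the signalling chain of the interferon-γ receptor, fell the most among genes named by size, opposite to Ifngr1. It stood at 7.29, 8.66, 14.6 and 0 CPM in positive cells and 101, 96.1, 28.8 and 33.0 CPM in negative cells. Both lungs were lower (log2 fold change −3.47, SE 0.50, adjusted p = 3.49e-09), and Ifngr2 passed with each library left out. The positive sums of the MLN were too small to show a direction.

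Further genes that fell in each library were Lgmn, a lysosomal protease (log2 fold change −2.62), Tox, a transcription factor of T cell differentiation (−2.19), Ltb4r1, a leukotriene B4 receptor (−2.05), Rflnb (−1.67), Fam46a (−1.66), Pmm2, an enzyme of protein glycosylation (−1.59), and the immediate early factor Egr1 (−1.50). Rflnb, an actin regulator, was higher in the MLN than in the lung in both kinds of cell, at 25.5, 8.66, 116 and 206 CPM against 34.5, 46.1, 439 and 417. Positive cells were lower in each library, and the call did not hold without MLN 1 (adjusted p = 0.0696).

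Among the higher genes outside these programs, AW112010 stood at 875, 1212, 1004 and 1577 CPM against 321, 329, 607 and 587, with no overlap (log2 fold change 1.18, SE 0.18, adjusted p = 1.77e-08). Epsti1, an interferon-induced gene, stood at 281, 268, 218 and 206 CPM against 78.8, 128, 153 and 103, again with no overlap (log2 fold change 1.10, SE 0.21, adjusted p = 5.355e-05). Epsti1 lost the call without lung 1 (adjusted p = 0.689) and without lung 2 (0.0764), and AW112010 without lung 2 (0.0570). Lyst, a regulator of lysosomal traffic (1.85), Gm4070 (1.61), Gm10282 (1.29) and the replication genes Prim1 (1.32), Clspn (1.29) and Mcm3 (1.085) also passed. The call was kept in 10 alternative settings and not in 7 for Lyst, 5 and 13 for Gm4070, and 8 and 10 for Gm10282. For Prim1 these numbers were 9 and 9, for Clspn 10 and 7 and for Mcm3 10 and 8.

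Cell cycle genes rose in number, with 18 of 24 higher, none lower and a median log2 fold change of 1.14. Birc5 and Top2a, which act in mitosis, differed by 1.745 (adjusted p = 1.115e-11) and 1.40 (adjusted p = 3.66e-08), and Mki67, the proliferation marker, by 1.24 (adjusted p = 9.71e-06). By cells the difference was small: Mki67 or Top2a was found in 30.3%, 34.4%, 12.5% and 0% of positive cells against 27.7%, 21.8%, 14.1% and 13.7% of negative cells. The positive cells with either were 10, 11, 1 and 0. With negative cells matched in depth 6 cell cycle genes rose, with all cells thinned to 2000 UMIs 2, and with DESeq2 none (18 had an unadjusted p under 0.05). Without lung 1 the number was 5 and without lung 2 it was 12, as it was without MLN 1.

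In the other lists few genes passed. Of 14 follicular helper genes 1 fell, Pdcd1, which encodes the receptor PD-1 (log2 fold change −1.14, adjusted p = 0.0013), and the median was −0.67 (−0.57 with bounds). Pdcd1 was not called without lung 1, with DESeq2, with negative cells matched in depth or in cells thinned to 2000 UMIs. Of 12 genes of resting and circulating cells 1 fell, Il7r, the IL-7 receptor chain, with a median of −0.61. Il7r was not called without lung 1 or without lung 2. Of 8 regulatory and Th17 genes none passed in edgeR (2 had an unadjusted p under 0.05, median −0.31). Of 29 interferon-induced genes Igtp rose (0.85, adjusted p = 0.0428) and Ifi27l2a fell (−1.20, adjusted p = 6.41e-09), with a median of 0.23. Igtp was not called without lung 1, without lung 2 or without MLN 2, whereas Ifi27l2a was called with each library left out.

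Of 19 genes of tissue homing 4 rose, among them Itga1, the α1 integrin chain of tissue-resident cells (log2 fold change 3.80, SE 0.61, adjusted p = 1.62e-07), Lgals1 (0.60, adjusted p = 0.0376) and Lgals3 (1.00, adjusted p = 0.0354). Itga1 was found in 6, 4, 1 and 0 positive cells and in 10, 5, 1 and 2 negative cells. It passed with each library left out, whereas Lgals3 was higher in 1 of 4 libraries, with 28 of its 48 UMIs of lung 2 in 1 cell. Without lung 1, without lung 2 and with DESeq2 Itga1 alone rose. With negative cells matched in depth none of 15 homing genes passed in edgeR, with 4 at an unadjusted p under 0.05. The median of the homing list was −0.01 and turned positive under DESeq2 size factors. Of 19 immediate early genes 2 fell, Jun (−0.99, adjusted p = 0.0394) and Egr1, with a median of −0.33. Jun was not called without lung 1, without lung 2 or without MLN 1, and 4 genes fell without MLN 2. With DESeq2 none passed (5 had an unadjusted p under 0.05). Of 20 costimulatory and inhibitory receptors 1 rose, Cd226, and 1 fell, Pdcd1 (median −0.39).

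**Figure D3:**
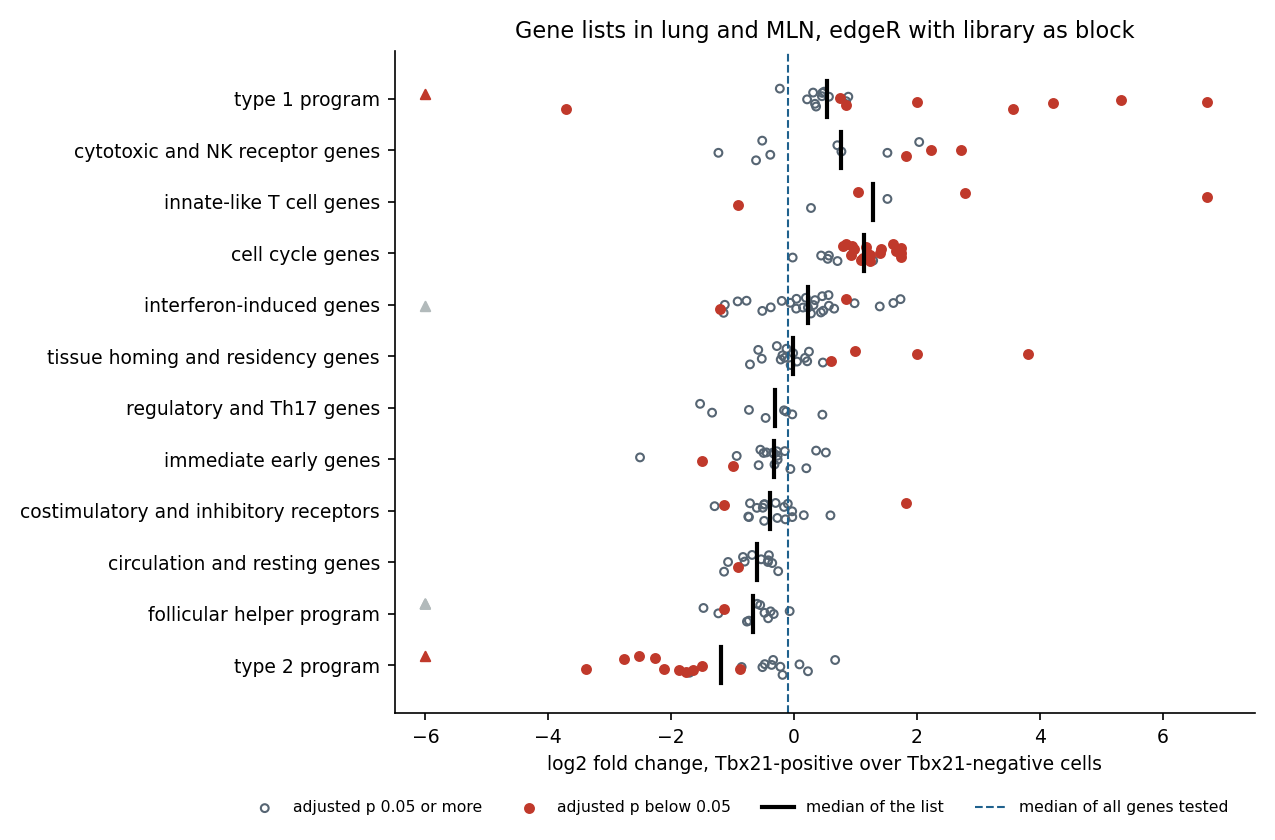
Log2 fold change (x axis) of each tested gene, Tbx21-positive over Tbx21-negative cells, by gene list (rows). Filled red points passed an adjusted p of 0.05, open points did not, triangles at the left edge are genes without a UMI in positive cells, black bars are list medians and the dashed line is the median of all genes, −0.10. The type 2 row lies to the left with 11 genes lower, and the cell cycle row to the right with 18 higher.

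Markers of other cell types were counted in the same sums. Of 15 myeloid markers 3, 2, 8 and 2 had a UMI in the positive cells of lung 1, lung 2, MLN 1 and MLN 2, and their summed level was 182, 186, 422 and 411 CPM against 205, 208, 266 and 278 CPM. Lyz2, a lysozyme of macrophages and neutrophils, passed (log2 fold change 2.46, adjusted p = 0.0422) on 8 UMIs of 1 cell of MLN 1. Without likely doublets none of 4 tested myeloid markers passed in edgeR, and none had an unadjusted p under 0.05. B cell markers gave 1, 1, 0 and 0 UMIs. The markers of type 2 innate lymphoid cells, which share Gata3 and Il1rl1 with Th2 cells, summed to 831, 827, 233 and 480 CPM against 2031, 1546, 264 and 296, and Kit had no UMI. The part of these RNAs in the differences above was not tested. Genes with many UMIs in few negative cells, such as Cxcl2 (0 UMIs in positive cells against 2108, at least 14.1-fold lower) and Sostdc1 (0 against 1383, at least 9.26-fold lower), are not of the lists.

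Within the 75 cells, type 1 and type 2 RNAs were found together. Of the 18 cells with Ifng, all in the lung, 11 (61.1%) also held Il4 and 17 (94.4%) held Gata3. Among the cells without Ifng these shares were 56.1% and 77.2%. Of the 34 cells with Cxcr3, 27 held Gata3 and 5 (14.7%) held Il13, against 26.8% with Il13 in cells without Cxcr3. Of the Ifng cells 5 held Il13.

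Ifng and Cxcr3 marked partly different cells. In the 65 lung cells, 18 held Ifng, 28 held Cxcr3 and 8 held both. Cxcr3 was thus found in 44.4% of cells with Ifng and 42.6% of those without. Ccl5 was found in 33.3% of lung cells with Ifng and 14.9% of the others, and over all 75 cells Nkg7 was found in 50% of cells with Cxcr3 and 29.3% of the others. These shares follow depth as well as expression, since a deeper cell shows more of each RNA, and were not tested.

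**Figure D4:**
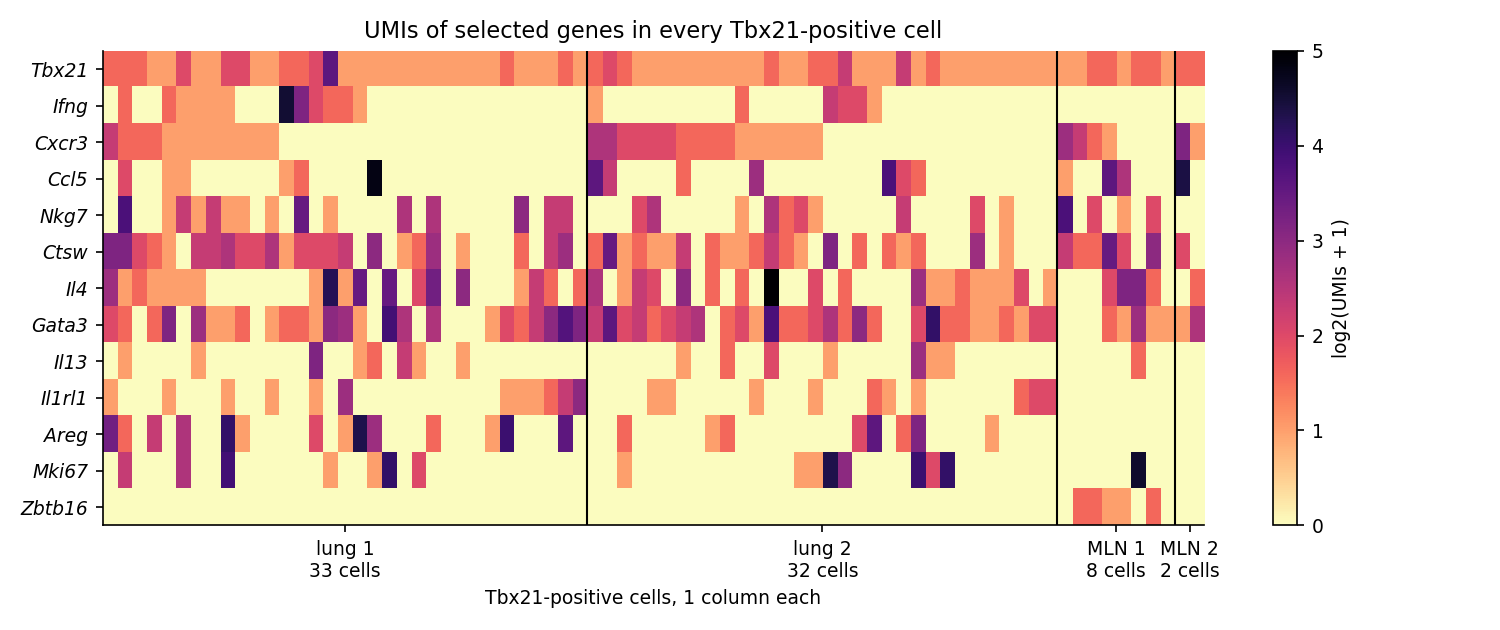
UMIs of 13 genes (rows, log2(UMIs + 1) as color) in each of the 75 Tbx21-positive cells (columns), by library. Cxcr3, Ctsw, Il4 and Gata3 spread over many cells, 1 cell of lung 1 holds 22 Ifng UMIs, and Zbtb16 appears in 5 cells of MLN 1 alone.

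Cells with more Tbx21 UMIs held type 1 RNAs more often. In the lung, 1422 negative cells, 44 cells with 1 Tbx21 UMI and 21 cells with 2 or more had median depths of 6637, 5447 and 8159 UMIs. Ifng was found in 1.48%, 18.2% and 47.6% of them, Cxcr3 in 2.74%, 38.6% and 52.4%, and Ccl5 in 1.55%, 13.6% and 33.3%. Ctsw followed at 19.3%, 65.9% and 76.2%, and Nkg7 at 11.5%, 34.1% and 47.6%. The order was the same for each of these genes, and the cells with 2 or more were also the deepest. Il4 stayed near 68.2%, 59.1% and 57.1% and Gata3 near 92.3%, 81.8% and 85.7%, and Il1rl1 was found in 67.4%, 36.4% and 28.6%. Areg showed no such order, at 45.9%, 27.3% and 47.6%.

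The positive cells were 18 of the 39 lung cells without an invariant TCR that held Ifng (46.2%), with 12 of 26 in lung 1 and 6 of 13 in lung 2, and held 41.7% of the Ifng UMIs there. They were 28 of 67 lung cells with Cxcr3 (41.8%) but 6 of 78 MLN cells with it (7.69%). For Ccl5 they were 13 of 35 in the lung and 4 of 24 in the MLN, and for Nkg7 25 of 189 lung cells (13.2%). By contrast they were 3.77% of lung cells with Il4 and 0.227% of those of the MLN.

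Clone mates tell whether cells of the same origin also held Tbx21. Of the 48 cells that shared a clone with a positive cell other than themselves, each counted once, 4 were positive (8.33%, 95% interval 2.32 to 20). By library there were 4 positive and 18 negative mates in lung 1 and 0 positive mates beside 7, 18 and 1 negative ones in lung 2, MLN 1 and MLN 2, where the shares of positive cells among all cells were those given above. The 4 come from clones 1 and 2, whose cells all lay in lung 1. In clone 2 both cells were positive, with 2 and 8 Ifng UMIs, 3 and 2 Ccl5 UMIs and 13 and 10 Nkg7 UMIs. Clone 1 had 4 cells, 2 of them positive, and 1 of these held the 27 Ccl5 UMIs.

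Other clones were mixed. In clone 10 the positive cell held 22 Ifng UMIs, and its negative mate in the same lung held 0, with 12 Il1rl1, 12 Gata3 and 7 Nkg7 UMIs. In clone 16 of lung 2 the order was turned: the negative mate held 19 Ifng, 3 Cxcr3 and 1 Ccl5 UMIs, and the positive cell 0 Ifng, 2 Cxcr3 and 2 Ccl5 UMIs. A cell could thus hold much Ifng RNA with no Tbx21 UMI captured.

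Over all 44 negative mates the lungs differed. In lung 2, 3 of 7 negative mates held Cxcr3 (42.9%, against 5.15% of other negative cells) and 3 of 7 held Ccl5 (against 1.08%). In lung 1, 0 of 18 held Ifng, Cxcr3 or Ccl5, and 16 of 18 held Il1rl1 (88.9%, against 70.9%). These are a few cells of few clones and carry no test. Clones with a positive cell had cells in both organs in 6 of 21 cases, and their 19 MLN cells were all negative. The largest had 15 cells, 5 in lung 1, of which 1 was positive, and 10 in MLN 1.

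Positive cells of the lung and of the MLN were compared with each other, to ask how the tissue bore on them. The MLN arm held 10 cells, so the test covered 2635 genes, of which 37 passed (1.40%; 30 higher in the lung, 1.14%, and 7 lower, 0.266%). With the mouse as a block 88 passed. The median log2 difference of all genes was 0.07. Negative cells were not part of this test, so it cannot tell whether a difference is particular to positive cells. The organ difference of the positive against negative contrast, described below, called none of 19 immediate early genes in edgeR. Of these, 3 had an unadjusted p under 0.05. That test found 0 of 196 changed genes in simulated data, so it cannot decide this. Lungs were perfused and enzymatically digested, and lymph nodes were not digested, so organ and preparation cannot be told apart.

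Genes of early activation and stress were higher in the lung: of 12 tested immediate early genes 6 rose (median log2 difference 3.83, 3.19 with bounds). Tnfaip3, an inhibitor of NF-κB signalling, had 194 and 158 UMIs in the lungs and 0 and 0 in the MLN, at least 19.35-fold higher. Fos had 87 and 167 against 0 and 0, at least 13.96-fold. Junb stood at 5058, 4411, 378 and 0 CPM (log2 difference 4.03), Gadd45b at 799, 775, 14.6 and 0 (5.97) and Nfkbia at 1440, 1441, 131 and 68.6 (3.63, adjusted p = 0.000558). Lung and MLN did not overlap for any of these.

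Of 14 homing genes 5 were higher in the lung, which were Cd69, a retention marker (log2 difference 3.44), Rgs1, Rgs2, S100a4 and S100a6 (4.54). Ctla4 (5.27), Tnfrsf4, which encodes OX40 (3.36), Bhlhe40 (3.29) and Ifngr1 (2.43) were higher as well. Bhlhe40 and Ifngr1 were also higher in the lung in negative cells, at the levels given above. Izumo1r, the folate receptor 4 of follicular helper and regulatory cells, was lower, at 72.9 and 99.6 CPM in the lungs against 538 and 960 in the MLN (log2 difference −2.84, adjusted p = 0.00169). Art2b (−4.44), Rtp4 (−4.54), Lyst (−3.19), the kinase gene Txk (−3.07), Ddit4 (−2.0) and Sptssa (−1.47) were lower too. Without Zbtb16 cells 18 genes were higher and 1 lower (Ddit4) of 2143 tested. Of 11 genes named by size that were tested there, higher and lower together, 4 kept the call and 7 did not, Izumo1r and Sptssa among them.

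The MLN cells held a group apart. Zbtb16, which encodes PLZF, the factor of innate-like T cells, was found in 5 of 8 positive cells of MLN 1 (8 UMIs), in 0 of 2 of MLN 2 and in 0 of 65 lung cells. Of the 5 positive cells, 1 was the likely doublet of MLN 1 counted above. Among negative cells 11 of MLN 1 and 2 of MLN 2 held Zbtb16. None of the 5 cells had the invariant joint, though 1 of their α chains used TRAV11 with another J segment, printed to show that its joint is not the invariant one:
MLN 1 TRAV11 TRAJ6: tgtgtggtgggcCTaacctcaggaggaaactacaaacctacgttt
With all Zbtb16 cells left out of both groups, an alternative chosen after seeing the data, 171 genes passed, of which 151 were among the 180. The innate-like list had 3 of 6 genes higher and 1 lower in all cells (median 1.285) and 2 higher and 1 lower without the Zbtb16 cells (median −0.06). Il2rb, a receptor chain for IL-2 and IL-15, was one of these genes (log2 fold change 1.05, adjusted p = 9.65e-05, in 23, 21, 8 and 2 positive cells). The type 1 list then had 4 genes higher and 2 lower, and the lung comparison had 19 genes called.

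The contrast of positive and negative cells differed between the organs for 10 of 9068 genes (0.110%), all with the larger excess in the MLN. Without MLN 1, which leaves 2 positive cells in that arm, 47 genes were called, 41 of them with the larger excess in the lung, and the median difference of all genes was 7.08. Without the Zbtb16 cells 18 of 29 were, with a median of 0.81. With no adjustment, 485 genes had a p under 0.05. The median of this difference over all genes was 0.39 on the log2 scale, and 0.22 with DESeq2 size factors. Il7r was the clearest: positive cells had less than negative cells in the lungs, 150 and 108 CPM against 426 and 376, and more in the MLN, 247 and 411 against 45.7 and 88.8. The log2 difference, lung minus MLN, was −3.73 (adjusted p = 1.41e-09).

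The cells were also set against the invariant cells, the other T cells here in which Tbx21 was frequent. Of 76 cells with the TRAV11 TRAJ18 joint, 29 held Tbx21. Lung 2, with 32 positive cells and 8 invariant cells, and MLN 1, with 8 and 45, had enough of both kinds for a test, which took all invariant cells. Of 2360 genes 38 passed (1.61%; 28 higher, 1.19%, and 10 lower, 0.424%), and without the library block none did, with 155 at an unadjusted p below 0.05 in edgeR. In cells thinned to 2000 UMIs the split turned, with 8 higher and 12 lower of 613 tested. The median depth of the kinds was not matched, and leaving out a library was not possible.

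The noninvariant cells had more Lgals1, a galectin of effector cells, at 2619 CPM in lung 2 and 1833 in MLN 1 against 340 and 89.8 in invariant cells (log2 difference 3.63, adjusted p = 9.45e-07). Anxa2 (3.89), Vim (3.54), Birc5 (3.25) and histone genes such as Hist1h1b (5.25) were higher too, and 9 of 18 cell cycle genes rose (median 2.07). Mki67 or Top2a was found in 11 of 32 positive cells of lung 2 but in 1 of 8 of MLN 1. That 1 cell held 22993 of the 68724 UMIs of the MLN 1 sum. They had less Zbtb16, at 0 and 116 CPM against 641 and 277 (log2 difference −3.81, adjusted p = 0.008), and less Ccl5, at 178 and 247 CPM against 2702 and 726 (−3.05, adjusted p = 0.000122). Ccl5 was thus high against Tbx21-negative cells and low against invariant cells. Lmo4 (−4.11) and Il7r (−2.44) were lower. The gut-homing receptor Ccr9 (−2.63, adjusted p = 0.0448) lost the call in the 4 alternatives that could test it.

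The second run asked whether Tbx21 went with the same genes in lymph nodes of other mice. It had no TCR data, so invariant cells could not be left out, and their number is not known. In the MLN of the first run, 22 of the 32 Tbx21-positive cells with a TCR were invariant. The second run thus does not repeat the comparison for noninvariant cells alone. In it, 8061 singlets from 9385 filtered barcodes were used. Tbx21 was found in 23 cells of medLN 1, 24 of medLN 2, 19 of MLN 1 and 16 of MLN 2, or 1.11%, 1.19%, 0.957% and 0.801%. The 4 samples were close together, and medLN, which drains the lung, lay just above MLN. Of the 82 cells 64 had 1 Tbx21 UMI, and positive cells were deeper, with medians of 3446, 4622, 5300 and 5842 UMIs against 3171, 3221.5, 3317 and 3660.

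Of 10660 genes 335 passed (3.14%; 153 higher, 1.44%, and 182 lower, 1.71%), and the median of all genes was −0.13. Under DESeq2 size factors the split was 199 higher and 134 lower, so the share of higher calls was 59.8% in place of 45.7%. Type 1 genes rose in 8 of 21 cases and none fell (median log2 fold change 1.60). Without the Zbtb16 cells 6 of 20 rose (median 0.84), and with negative cells matched in depth 4 of 10 (median 0.94). Without medLN 1 and without MLN 1 the number was 5, and without medLN 1 another 1 fell.

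Markers of other T and NK cells moved in this run. Cd4 was found in 47.8%, 41.7%, 47.4% and 37.5% of positive cells against 64.1%, 62.2%, 62.1% and 64.7% of negative cells, and fell by 1.08 on the log2 scale (adjusted p = 8.675e-06). Cd8a had 2, 3, 0 and 0 UMIs and Cd8b1 9, 6, 0 and 0 in positive cells, from 2 and 3 cells of the medLN (log2 fold change 3.42, adjusted p = 0.0901, and 1.43, adjusted p = 0.189). Both passed in cells without Mki67 or Top2a. Eomes, a factor of NK and CD8+ T cells, had 3, 6, 0 and 0 UMIs in 2 cells (3.25, adjusted p = 0.0104). The part of these cells in the differences was not tested.

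Cxcr3 stood at 121, 187, 198 and 168 CPM in positive cells against 10.2, 14.2, 10.7 and 12.9, with no overlap (log2 fold change 3.77, SE 0.27, adjusted p = 1.40e-39). Ctsw stood at 130, 239, 108 and 79.8 CPM against 10.3, 12.4, 12.6 and 13 (3.46, adjusted p = 6.51e-28), and Ccl5 at 121, 81.7, 82.8 and 79.8 against 9.61, 9.34, 13.4 and 13 (2.97, adjusted p = 1.89e-14). Nkg7 stood at 346, 234, 790 and 87.8 CPM against 19.3, 17.3, 42.1 and 72.2 (3.32, adjusted p = 9.43e-53), with 102 of the 124 UMIs of MLN 1 in 1 cell. All 4 genes were higher in every sample and had also risen in the first run, where invariant cells were left out. Invariant cells of the first run held more Ccl5 than the positive cells, as given above. Ifng was rare, in 1, 0, 2 and 1 positive cells with 5 UMIs (4.74, SE 1.30, adjusted p = 0.0131).

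Id2, a repressor of E proteins in effector cells, passed in the second run, at 605, 613, 376 and 351 CPM against 253, 218, 160 and 160 with no overlap (log2 fold change 1.25, adjusted p = 1.23e-12). Cd226 (1.24, adjusted p = 0.00206), AW112010 (0.78, adjusted p = 6.67e-08), Epsti1 (0.77, adjusted p = 0.00639) and Mcm3 (1.07) rose as in the first run. Ly6c2 (3.76, with 24 of the 31 UMIs of medLN 1 in 1 cell), Ctla2a (1.57), Ckb (1.46), Gbp2 (1.42) and Il7r (1.17) rose here. Zbtb16 was found in 11 positive cells, 5, 1, 4 and 1 by sample (3.59, adjusted p = 3.83e-05), and 4 of 9 innate-like genes rose (median 0.42). Without Zbtb16 cells 2 of 8 rose and 1 fell (median −0.39), with negative cells matched in depth 2 of 5 rose, and without MLN 1 2 of 9 (median −0.12). Cell cycle genes rose in 19 of 24 (median 0.75). With negative cells matched in depth 2 rose (median 0.35), with DESeq2 10, without MLN 1 9 and without MLN 2 8. In cells without Mki67 or Top2a none of 16 passed in edgeR, with 1 at an unadjusted p under 0.05.

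Of 14 follicular helper genes 11 fell in the lymph nodes and none rose (median −1.51, −1.32 with bounds). With negative cells matched in depth 1 of 11 fell, Cxcr5, with DESeq2 4 fell, without MLN 1 6, without MLN 2 5 and without medLN 2 7. Cxcr5, the receptor that leads T cells into B cell follicles, was found in 2, 2, 0 and 0 positive cells against 16.2%, 20.9%, 25.7% and 24.0% of negative cells (log2 fold change −3.08). Bcl6, the factor of this lineage, fell by 1.64 and Pdcd1 by 1.91 on the log2 scale. Tox (−1.87), Lgmn (−1.99) and Rflnb (−2.49, adjusted p = 7.70e-21) fell in both runs. Il1rl1 (−3.49, 1 UMI, adjusted p = 0.0216) passed as well, but not without MLN 2 (adjusted p = 0.258), medLN 1 (0.0548) or medLN 2 (0.227), matched in depth (0.0906), without the block (0.105) or in cells without Mki67 or Top2a (0.274). Of 20 costimulatory and inhibitory receptors 7 fell and 1 rose, against none of 18 falling when matched in depth (4 at an unadjusted p under 0.05 in edgeR), 1 with DESeq2, 1 without MLN 2, 2 without the block and 3 each without MLN 1 and without medLN 2. Igkv5-48 had 9724 UMIs in negative cells and 0 in positive cells, at least 48.15-fold lower, and Ighv6-6 was at least 11.3-fold lower, both immunoglobulin genes of B lineage cells.

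Type 2 genes went neither way as a list in the second run, with 2 of 21 higher and 2 lower (median −0.32, −0.22 with bounds). In cells without Mki67 or Top2a 4 were higher and none lower. Without MLN 1 none was higher and 2 were lower, Areg and Il1rl1. Il4 (log2 fold change −0.41, adjusted p = 0.417) and Gata3 (−0.32, adjusted p = 0.572) did not pass. The rises of Il5 (3.96) and Il13 (1.58) rested on single cells, since 168 of the 171 Il5 UMIs and 208 of the 210 Il13 UMIs of MLN 1 were in 1 cell, as were 46 of the 52 Il13 UMIs of medLN 1. Areg (−0.22) and Ifngr2 (−0.95, adjusted p = 0.511) were not called here with all samples in use. Hdc turned from −3.42 in the first run to 1.60 (adjusted p = 0.0188 in edgeR), with most of its node UMIs in single cells. Ltb4r1 turned from −2.05 to 0.72 and did not pass (adjusted p = 0.446 in edgeR).

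**Figure D5:**
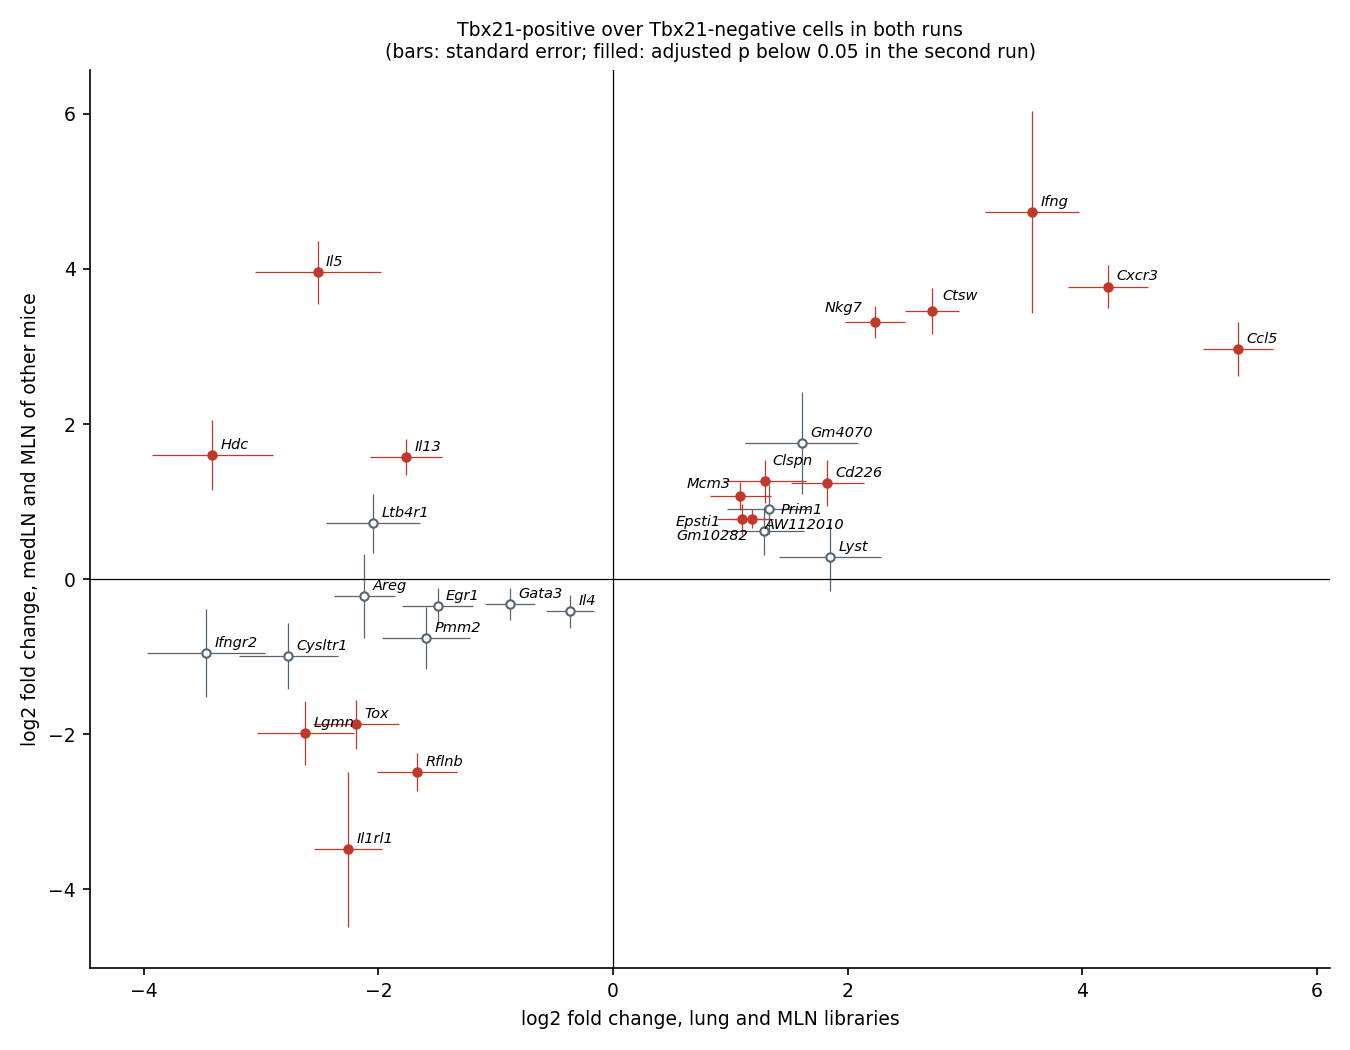
Log2 fold change of Tbx21-positive over Tbx21-negative cells in the lung and MLN libraries (x axis) and in the medLN and MLN samples of other mice (y axis), with standard errors, for the genes named in the first run. Filled points passed an adjusted p of 0.05 in the second run. Invariant cells were left out of the first run only. Cxcr3, Ctsw, Nkg7, Ccl5 and Ifng lie high on both axes and Il1rl1, Tox, Lgmn and Rflnb low on both. Il5, Il13 and Hdc lie on opposite sides, with most of their node UMIs in single cells. Ltb4r1 also does, at −2.05 and 0.72, and did not pass in the second run.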

How the data were processed

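Gene counts were deposited as UMI counts per barcode. Per the labels and the methods, the authors sorted IL-4eGFP+ CD4+ cells and used Cell Ranger 3.0.1 against mm10 for the first run and Cell Ranger 6.1.2 for the second. Clones and TCR chains came from the deposited contig lists. Counts were summed per library and Tbx21 status and fitted with edgeR 4.0.16 (R 4.3.3; quasi-likelihood, TMM, filterByExpr, library as block, Benjamini-Hochberg). An SE from edgeR is the size of the log2 fold change divided by the square root of the test's F statistic. TCR genes and Tbx21, 270 in all, stayed in library sizes but out of the tests. Positive cells held 274246, 231029, 68724 and 14588 UMIs in lung 1, lung 2, MLN 1 and MLN 2, and negative cells 8213898, 2517248, 14187829 and 4370848. Second-run samples were assigned with HTODemux in Seurat 5.3.0. The genes named had an adjusted p below 0.05, at least 50 CPM and 1 direction in every library (12 each way, 8 in other contrasts), plus Tbx21, Ifng, Cxcr3 and list members. Invariant cells needed 5 cells of each kind per library. A fold against 0 used a floor of 3 counts over the group. Members and lists were chosen with earlier results of these data known. In simulated data with a log2 change of 2, the first contrast found 86 of 191 changed genes with 3 false calls among 8984 genes, and its organ difference found 0 of 196. The simulation gave all genes the same spread and did not gather UMIs in single cells, so its false calls need not hold for these sums. Lung and MLN of a mouse are paired by animal, and their deviations correlated by 0.0145 over 2635 genes. Gene positions are from GENCODE vM21 (GRCm38), and CDR3 germline ends were read from its transcripts. Values of some list members are not reported here.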

Additional observations from a re-analysis of the deposited data

Results flagged for a closer look

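The difference between Tbx21-positive and Tbx21-negative cells was itself different in lung and MLN for 10 genes, by an interaction term in edgeR's quasi-likelihood test. Each had a larger excess in the MLN, where the positive cells numbered 8 and 2. Without MLN 1, 47 genes were called, 41 of them with the larger excess in the lung, 3 of the 10 were among them, and the median over all genes was 7.08 (log2, lung minus MLN). With all libraries that median was 0.39. Values below are CPM in lung 1, lung 2, MLN 1 and MLN 2.

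Il7r, the IL-7 receptor chain, differed by −3.73 (adjusted p = 1.41e-09), with 150, 108, 247 and 411 in positive cells and 426, 376, 45.7 and 88.8 in negative cells. Ctsw, the cytotoxic cell cathepsin, differed by −3.14 (adjusted p = 1.13e-08), being higher in positive cells of each library. Cish, a STAT5-induced inhibitor of cytokine signalling, differed by −3.10 (adjusted p = 3.99e-06), with 299, 178, 204 and 411 against 286, 273, 29.5 and 27.2. Plac8 differed by −2.17 (adjusted p = 0.000965), with 339, 342, 277 and 617 against 792, 549, 141 and 107. Nkg7 differed by −2.14 (adjusted p = 0.0395).

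Id2 differed by −1.51 (adjusted p = 0.00928), with 325, 632, 771 and 274 against 341, 481, 160 and 208. Tagln2, an actin-binding protein, differed by −1.41 (adjusted p = 0.0395), with 1448, 1078, 1091 and 137 against 1099, 1107, 241 and 198. For Ccr8, Ramp1 and Ckb the positive cells of MLN 2 had no UMI, and those of MLN 1 had more than the negative cells. Ccr8, a skin and Th2 homing receptor, differed by −5.50 (adjusted p = 0.00236), with 160, 165, 72.8 and 0 against 181, 146, 0.705 and 2.52. Ramp1, a part of the receptor for the Calca peptide, differed by −4.43 (adjusted p = 0.000965), with 18.2, 34.6, 131 and 0 against 77.9, 56.0, 11.6 and 10.1. Ckb, a creatine kinase, differed by −3.72 (adjusted p = 3.49e-05), with 29.2, 26.0, 291 and 0 against 49.2, 17.5, 21.0 and 13. Of the 8 MLN 1 cells 5 held Zbtb16, and without Zbtb16 cells 29 genes were called for the organ difference, 18 with the larger excess in the lung, and 4 of the 29 were among these 10.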

How the results depend on the processing

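The first contrast (180 genes called) gave 21 with DESeq2 (879 adjusted p-values were not given), 1 without the library as replicate block, 10 in the MLN alone (8 among the 180), 67 with negative cells matched in depth (62), 20 after thinning to 2000 UMIs (20) and 76 in cells without Mki67 or Top2a (63). Leaving out 1 library gave 43 to 223, with 43 without lung 1, 77 without lung 2 and 122 without MLN 1. The organ difference (10) gave 4 with DESeq2, 19 matched in depth, 2 thinned, 29 without Zbtb16 cells and 3 to 47 with a library left out (3 without lung 1, 47 without MLN 1, 24 without MLN 2). Id2 reversed there, from −1.51, without MLN 1, to 0.40 (adjusted p = 0.783 in edgeR), and was −2.01 without MLN 2. Lung against MLN (37) gave 22 with DESeq2 (920 adjusted p-values not given), 91 with no filter, 88 with the mouse as replicate block, 12 thinned, 19 without Zbtb16 cells and 30 to 41 with a library left out. The second run (335) gave 97 with DESeq2 (6200 of 10660 not given), 158 without the block, 40 matched in depth, 157 in cells without Mki67 or Top2a and 121 to 444 with a sample left out (444 without medLN 1, 208 without medLN 2, 127 without MLN 1, 121 without MLN 2). Against invariant cells (38) there were 11 with DESeq2, 23 with no filter, 0 without the block (155 at an unadjusted p below 0.05) and 20 thinned, and a left-out library could not be fitted. Thinned shares of lung 1 and lung 2 were 1.78% and 3.25%. With cells taken with or without a TCR, MLN 1 had 0.687% in place of 0.331% and MLN 2 0.569% in place of 0.272%. The cause of these changes was not tested, except that thinning, matching and leaving out leave fewer UMIs, genes or cells to test. Of the 25 genes named in the first contrast, 25 kept their call and direction under DESeq2 size factors in edgeR, 25 without likely doublets and 25 with 1 cell per clone, 20 in the lung alone, 18 matched in depth and 18 with 2 or more Tbx21 UMIs, but 12 with DESeq2, 14 without lung 1, 16 without lung 2, 10 of 24 thinned, 3 of 22 in the MLN alone and 1 of 24 without the block. Ccl5 did in each setting. The MLN arms of 8 and 2 cells limit what a zero there can show.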
